A study of Mus musculus with 16 samples.

Results

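H3K27 acetylation was followed across the Cyp3a genes of mouse chromosome 5, a family of 9 members, in livers with and without the corepressor NCoR1. The members, chosen by name, are Cyp3a11, Cyp3a13, Cyp3a16, Cyp3a25, Cyp3a41a, Cyp3a41b, Cyp3a44, Cyp3a57 and Cyp3a59. A region belonged to a member when its midpoint lay inside that gene, or in no protein-coding gene and within 50 kb of it as the nearest one. By this rule 85 of the 52645 regions in the table fell to 8 members, 16 to Cyp3a11, 15 to Cyp3a16, 13 to Cyp3a41a, 11 to Cyp3a41b, 11 to Cyp3a25, 8 to Cyp3a44, 7 to Cyp3a13 and 4 to Cyp3a59. Of these, 49 lay inside a member and 36 outside, 3 of the 36 inside noncoding genes (Cyp3a63-ps, Gm38744 and Gm8454), and all 85 passed the filter on low counts. Cyp3a57 had 0 regions, so nothing was measured for it. The region just inside the distance limit, 48.9 kb from Cyp3a41b, averaged 3.44 ± 0.819 CPM in KO on PTU/LID, 3.32 ± 1.01 in WT livers on PTU/LID, 5.28 ± 1.74 in KO livers on chow and 3.66 ± 2.60 in WT on chow (SD, n = 3). The one just outside, 50.7 kb from Cyp3a41a, averaged 2.08, 2.71, 4.75 and 2.03 CPM in the same order. Of the other 4 regions in that gap, all beyond the limit, 1 was strong: chr5:145634338-145637211, 51 kb from Cyp3a41b, averaged 63.2 ± 25.1, 28.5 ± 6.94, 166.8 ± 46.2 and 40.997 ± 3.73 CPM in the same order, and belongs to no member by the rule. The remaining 3 averaged 11.7 to 24.2 CPM in KO on chow and 4.59 to 7.82 in WT on chow. The family was singled out with earlier results of these data known, namely a lower Cyp3a11 in WT livers and a lower start region of Cyp3a16 in KO livers on the hypothyroid diet. For members, values of those diet comparisons, and of the difference between them, are therefore given as a description, without p-values. Comparisons of genotypes share libraries with them, so their p-values are not fully independent of that choice.

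Livers came from mice of strain background C57BL/6J, labelled NCoR1 KO or Wt. From 6 weeks of age and for 3 weeks they received PTU/LID, a low-iodine diet with 0.15% propylthiouracil, which blocks thyroid hormone synthesis, or stayed on chow, and all were killed on day 21. The 4 groups of 3 H3K27ac libraries were KO on PTU/LID (labelled Ptulid_NCoRKO_27ac_211, Ptulid_NCoRKO_27ac_232 and Ptulid_NCoRKO_27ac_239), WT on PTU/LID (Ptulid_WT_27ac_135, Ptulid_WT_27ac_155 and Ptulid_WT_27ac_280), KO on chow (Chow_NCoRKO_27ac_122, Chow_NCoRKO_27ac_146 and Chow_NCoRKO_27ac_190) and WT on chow (Chow_WT_27ac_96, Chow_WT_27ac_99 and Chow_WT_27ac_106), and values below follow that order of libraries. The labels give neither the deleted part of NCoR1, nor the cell type in which it was removed, nor the sex of the mice, and no thyroid hormone values were used. They do not say that each library is a separate animal either, so each p-value rests on how far libraries of a group differ, which may be technical. The study asked how euthyroid and hypothyroid livers of both genotypes differ in H3K27ac.

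Summed counts per library ran between 2965505 and 7416187, and the 85 regions held 0.0614% to 0.152% of them. The mitochondrial chromosome took over 2% of the counts in 7 libraries (Ptulid_NCoRKO_27ac_211, Ptulid_WT_27ac_135, all of KO on chow, Chow_WT_27ac_96 and Chow_WT_27ac_99), against 0.717% to 1.08% in the other 5. Chow_NCoRKO_27ac_146 stood apart at 17.25%. These 7 libraries are called the higher-mitochondrial libraries, and some of the counts and calls that change within them are named beside the pooled ones. Hepatocyte markers had regions for 7 of 8 genes, with summed levels of 3800 to 3841 CPM in KO on PTU/LID, 2569 to 3800 in WT livers on PTU/LID, 2986 to 3266 in KO livers on chow and 2734 to 3353 in WT on chow, so the labelled tissue showed its markers. The Xist start region (chromosome X, 103481741 to 103483151) was acetylated in every group, at means of 38.1, 31.6, 30.8 and 27.8 CPM in the group order above, while the Y-linked Ddx3y, Eif2s3y, Kdm5d and Uty had no region in the table. Chromosome Y regions starting at 43920858 and 58854651 had group means of 2.03 to 2.69 and 4.05 to 5.78 CPM. The sex of the mice was not tested.

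Cyp3a enzymes are cytochrome P450s of the endoplasmic reticulum that oxidise drugs, steroids and bile acids, drawing electrons from P450 oxidoreductase and cytochrome b5. Cyp3a11 is the main inducible member in adult mouse liver and a target of the nuclear receptors PXR and CAR, while Cyp3a16, Cyp3a41 and Cyp3a44 are known as predominantly female genes in mouse liver whose expression follows the pattern of growth hormone secretion. NCoR1 is a corepressor that brings histone deacetylase HDAC3 to nuclear receptors, thyroid hormone receptors among them, and H3K27ac marks active promoters and enhancers. On mm10, 8 members lie between positions 145345149 and 146114978 of chromosome 5, and Cyp3a13 sits apart at 137892933 to 137925610.

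The 250 bases before the start site of a gene show which members are close copies. RefSeq (GRCm38.p6) gave these for all 9 members, and 5 are printed 5′ to 3′, each from its own gene's strand, since the 4 closest copies also moved together in the results below. Capitals mark AGGTCA and AGTTCA, half-sites that nuclear receptors bind, TGTTTAC, a FOXA motif, and CAAAGTCCA, an HNF4A motif, on either strand.
Cyp3a16, minus strand, chr5:145469724-145469973: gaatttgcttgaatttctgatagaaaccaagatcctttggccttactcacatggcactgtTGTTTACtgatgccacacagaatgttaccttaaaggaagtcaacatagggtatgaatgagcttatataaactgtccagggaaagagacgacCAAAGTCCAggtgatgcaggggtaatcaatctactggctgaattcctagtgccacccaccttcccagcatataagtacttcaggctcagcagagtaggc
Cyp3a41a, minus strand, chr5:145720137-145720386: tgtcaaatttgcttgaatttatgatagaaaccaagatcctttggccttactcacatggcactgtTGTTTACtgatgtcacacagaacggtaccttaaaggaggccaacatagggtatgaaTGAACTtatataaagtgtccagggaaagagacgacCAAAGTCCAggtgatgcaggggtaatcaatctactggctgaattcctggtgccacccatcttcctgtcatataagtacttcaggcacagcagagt
Cyp3a44, minus strand, chr5:145805875-145806124: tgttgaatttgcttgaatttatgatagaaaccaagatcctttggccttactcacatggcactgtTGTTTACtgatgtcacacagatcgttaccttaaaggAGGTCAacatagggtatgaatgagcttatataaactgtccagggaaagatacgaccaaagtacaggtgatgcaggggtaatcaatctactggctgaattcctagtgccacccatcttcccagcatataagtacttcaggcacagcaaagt
Cyp3a11, minus strand, chr5:145879855-145880104: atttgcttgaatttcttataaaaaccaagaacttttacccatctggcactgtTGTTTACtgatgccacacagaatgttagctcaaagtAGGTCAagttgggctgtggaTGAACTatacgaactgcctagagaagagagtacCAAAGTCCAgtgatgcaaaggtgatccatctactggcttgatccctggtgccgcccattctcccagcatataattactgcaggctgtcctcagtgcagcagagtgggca
Cyp3a25, minus strand, chr5:146009619-146009868: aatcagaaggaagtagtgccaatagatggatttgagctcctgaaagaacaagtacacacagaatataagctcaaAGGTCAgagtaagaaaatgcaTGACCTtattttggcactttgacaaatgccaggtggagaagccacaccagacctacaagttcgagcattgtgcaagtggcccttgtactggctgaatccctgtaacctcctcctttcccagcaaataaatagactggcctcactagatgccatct

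Pairwise identity of these stretches set Cyp3a16, Cyp3a41a, Cyp3a41b and Cyp3a44 together, at 91.3% to 99.6% in 6 pairs. Against Cyp3a11 they stood at 72.5% to 76.6%. Cyp3a25, Cyp3a57 and Cyp3a59 formed another family at 88.9% to 94.8%, and stood at 55.5% to 56.3% with Cyp3a11. Identity between both families was 52.7% to 57.4%, no higher than that of Cyp3a13 with any member (52.4% to 58.0%). Cyp3a41a and Cyp3a41b differed there by 1 substitution, T222G, counted from 1 at the 5′ end with the base of Cyp3a41a first. Reads from such copies cannot be assigned with certainty, and how they were handled is not given in the sources used here, so the split of signal between Cyp3a41a, Cyp3a41b, Cyp3a16 and Cyp3a44 is uncertain.

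Of the letters searched on both strands, CAAAGTCCA occurred in 4 of 9 member promoters (Cyp3a16, Cyp3a41a, Cyp3a41b and Cyp3a11) and in 0.384% of 32851 RefSeq promoters of this length. TGTTTAC occurred in 5 (the same 4 and Cyp3a44) and in 3.17% of all. AGGTCA occurred in 5 (Cyp3a11, Cyp3a44, Cyp3a25, Cyp3a57 and Cyp3a59) against 14.0%, and AGTTCA in 3 (Cyp3a11, Cyp3a41a and Cyp3a41b) against 11.8%. The PXR elements DR3 (AGTTCA repeated with 3 bases between) and ER6 (TGAACT and AGTTCA with 6 bases between), the thyroid receptor element DR4 (AGGTCA repeated with 4 bases between) and the STAT5 motif TTCNNNGAA occurred in 0 member promoters, against 0%, 0.00609%, 0.0152% and 7.02% of all. A match is a stretch of letters and not a binding site, and the windows hold no distal enhancer.

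Levels are given as CPM (counts scaled to the size of the library) per kb of region, summed over the regions of a gene, so that genes can be compared. In WT livers on chow, Cyp3a11 (24.6 ± 2.55, SD, n = 3), Cyp3a13 (22.4 ± 1.09), Cyp3a25 (22.1 ± 1.01) and Cyp3a59 (19.4 ± 1.87) stood highest, and neighbours in that order differed by less than their summed spread. Cyp3a44 followed at 14.1 ± 2.81, and Cyp3a41b (10.1 ± 3.33), Cyp3a41a (9.70 ± 3.23) and Cyp3a16 (8.19 ± 2.84) were lowest and overlapped each other. In KO livers on chow the order was lost, with 8 members between 23.6 ± 1.93 (Cyp3a13) and 33.5 ± 9.92 (Cyp3a44). On PTU/LID, KO livers held Cyp3a25 at 31.0 ± 2.57 and Cyp3a11 at 30.0 ± 1.34 against 5.30 ± 1.71 for Cyp3a16, and WT livers held Cyp3a13 at 20.8 ± 3.59 and Cyp3a25 at 19.4 ± 0.878 against 6.21 ± 0.583 for Cyp3a16.

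**Figure D1:**
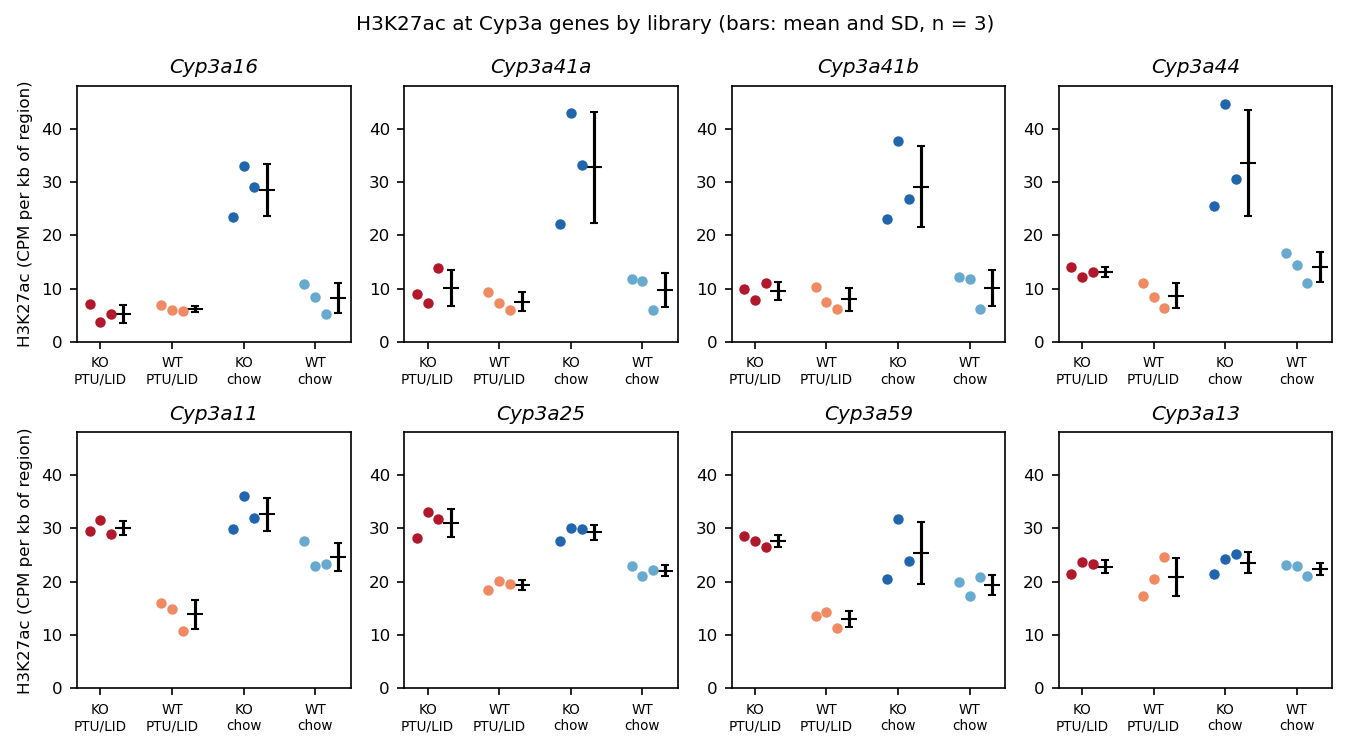
H3K27ac of 8 Cyp3a genes, in CPM per kb of region, 1 point per library, with the mean and SD of each group of 3 libraries beside the points. In the upper row (Cyp3a16, Cyp3a41a, Cyp3a41b, Cyp3a44) all KO libraries on chow lie above every other library, and in the lower row Cyp3a11, Cyp3a25 and Cyp3a59 are lowest in WT on PTU/LID.

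On chow, loss of NCoR1 went with higher acetylation over the predominantly female copies. KO livers on chow also enter the diet comparison of Cyp3a16 known beforehand, so the p-values here are not independent of how the family was chosen. Cyp3a16 had 23.4, 33.0 and 29.1 CPM per kb in KO livers on chow, against 10.9, 8.45 and 5.24 in WT livers on chow. The lowest KO library held more than the highest WT library, and the log2 fold change of the summed counts was 1.82 ± 0.26 (SE; edgeR quasi-likelihood test, Benjamini-Hochberg over 11459 genes, adjusted p = 0.00389). Cyp3a41a had 22.1, 42.9 and 33.2 in KO against 11.7, 11.4 and 5.98 in WT (1.78 ± 0.36, adjusted p = 0.0288), and Cyp3a41b had 23.0, 37.6 and 26.8 against 12.2, 11.8 and 6.24 (1.56 ± 0.28, adjusted p = 0.0114). Cyp3a44 had 25.4, 44.6 and 30.6 in KO against 16.7, 14.4 and 11.1 in WT (1.27 ± 0.21, adjusted p = 0.00411). For all 4 copies the groups were apart, as they were, in this direction, for 14.6% of all genes, and Chow_NCoRKO_27ac_146, with the most mitochondrial counts, was the highest KO library. Leaving it out kept the calls of Cyp3a16, Cyp3a41b and Cyp3a44, and ended that of Cyp3a41a (1.55, adjusted p = 0.0563), which was also lost without Chow_NCoRKO_27ac_190 or any 1 WT library on chow (1.50 to 1.94, adjusted p 0.0542 to 0.0804). Cyp3a25 also rose, by 0.40 ± 0.10 (adjusted p = 0.0241), a call lost without any 1 of the 6 libraries (adjusted p 0.0506 to 0.122). Its KO and WT libraries on chow were apart as well, and so were those of Cyp3a11. Cyp3a11 (0.41 ± 0.12, adjusted p = 0.0588), Cyp3a59 (0.38) and Cyp3a13 (0.08) did not pass. Cyp3a11 passed with DESeq2 (0.41, adjusted p = 0.0375), and had 0.37 within the higher-mitochondrial libraries. In all, 5 of 8 members were higher and 0 lower, by edgeR, where 2.54% of all genes were higher and 1.56% lower. At an unadjusted p below 0.05 these counts were 7 and 0 (DESeq2, adjusted, 6 and 0). Here and below, shares of genes or regions called belong to the edgeR adjusted threshold alone. Counts at an unadjusted p or by DESeq2 have no such share beside them and cannot be set against it.

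Within WT livers on chow, Chow_WT_27ac_96 and Chow_WT_27ac_99 held both the higher mitochondrial shares and the higher levels of Cyp3a16, Cyp3a41a, Cyp3a41b and Cyp3a44 than Chow_WT_27ac_106, and all 3 KO libraries on chow were higher-mitochondrial ones. Within the 7 higher-mitochondrial libraries the fold change of KO over WT on chow was 1.56 for Cyp3a16 (adjusted p = 9.97e-07), 1.28 for Cyp3a41b (0.00203), 1.50 for Cyp3a41a (0.113) and 1.11 for Cyp3a44 (0.067). Ptulid_NCoRKO_27ac_211 and Ptulid_WT_27ac_135 are alone in their groups there and were assumed to vary like the others. In bulk liver, fewer cells with the mark and less of it per cell cannot be told apart.

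Region by region, 43 of the 85 were higher and 0 lower in KO than in WT on chow, where 1.61% of the 52606 regions tested were higher and 0.823% lower. At an unadjusted p below 0.05 the counts were 61 and 1, and DESeq2 called 30 and 0 of the 65 to which it gave an adjusted p. All 15 regions of Cyp3a16 were among them, with 11 of 13 at Cyp3a41a, 9 of 11 at Cyp3a41b, 6 of 8 at Cyp3a44 and 2 of 16 at Cyp3a11, and 0 at Cyp3a25, Cyp3a59 and Cyp3a13. Log2 fold changes had a median of 1.88 over Cyp3a16, 1.76 over Cyp3a41a, 1.57 over Cyp3a41b and 1.29 over Cyp3a44, against 0.41 over Cyp3a11 and a median of -0.01 over all regions. Regions are in the table because peaks were called, and one called through KO livers on chow alone had to be high there. The filter on low counts can likewise be passed through that group alone. At Cyp3a16, chr5:145426342-145426567 averaged 0.867, 1.56, 5.37 and 1.57 CPM in the group order above. Such regions also enter the gene sums above and the diet counts in KO livers below, so these counts describe the cluster. Without Chow_NCoRKO_27ac_146 the count was 25, and without Chow_WT_27ac_106 it was 21.

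The start of Cyp3a16 shows the pattern at 1 site. It was known beforehand as lower on PTU/LID in KO livers, and the same KO libraries on chow enter this comparison. The region at chr5:145468718-145469639, 84 to 1005 bases downstream of the start site, had 33.9, 38.9 and 34.7 CPM in KO livers on chow and 15.8, 7.73 and 4.79 in WT livers on chow (log2 fold change 2.005 ± 0.27, adjusted p = 2.8e-05). Start-proximal regions of Cyp3a41a and Cyp3a41b moved alike. At Cyp3a41a, chr5:145719090-145720105 had 17.6, 32.7 and 25.8 CPM in KO against 6.97, 6.90 and 3.31 in WT (2.22 ± 0.31, adjusted p = 2.94e-05). At Cyp3a41b, chr5:145583767-145584386 had 17.1, 18.8 and 13.6 against 3.48, 4.42 and 2.31 (2.32 ± 0.32, adjusted p = 2.28e-05). In each of these 3 regions the KO and WT libraries on chow did not overlap, and how many of all regions do so was not counted. At Cyp3a44 the most start-proximal region, chr5:145804973-145805261, had 5.44, 6.88 and 2.45 CPM in KO and 2.53, 2.76 and 1.82 in WT, which overlapped and did not pass (1.07 ± 0.41, adjusted p = 0.151). Further inside Cyp3a16, chr5:145463539-145464844 had 30.5, 35.9 and 46.8 CPM in KO against 12.0, 10.5 and 8.10 in WT (1.92 ± 0.24, adjusted p = 3.28e-06). The strongest region of Cyp3a44, chr5:145793493-145794399, 11475 to 12381 bases inside the gene, had 24.5, 45.8 and 38.5 in KO against 15.8, 13.3 and 13.6 in WT (1.36 ± 0.23, adjusted p = 0.000367). The strongest region of Cyp3a41a lay 16741 to 17464 bases upstream of its start (chr5:145736877-145737600), with 20.5, 46.9 and 34.5 CPM in KO and 8.23, 10.8 and 7.77 in WT (1.94 ± 0.32, adjusted p = 0.00105). The strongest region of Cyp3a41b, chr5:145578161-145579095, had 12.7, 34.4 and 29.5 CPM in KO and 11.7, 8.83 and 4.79 in WT (1.66). Its call was lost with DESeq2 (adjusted p = 0.0597) and with upper quartile factors in edgeR (0.0712). It was also lost without Chow_NCoRKO_27ac_146 (1.41, 0.0958), among other left-out libraries.

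On PTU/LID the same 4 copies were low in both genotypes. Cyp3a16 had 7.07, 3.67 and 5.16 CPM per kb in KO livers on PTU/LID, which set against the KO livers on chow above gave a log2 difference of -2.45 ± 0.27. Cyp3a41a had 9.04, 7.32 and 13.9 (-1.69 ± 0.35), Cyp3a41b 9.82, 7.76 and 11.1 (-1.61 ± 0.27) and Cyp3a44 14.0, 12.1 and 13.1 (-1.36 ± 0.21). Every KO library on PTU/LID lay below every KO library on chow for these 4, as for 12.2% of all genes. Cyp3a11, Cyp3a25, Cyp3a59 and Cyp3a13 differed by -0.12, 0.09, 0.12 and -0.05 between the diets in KO livers. As a description, since this comparison entered the choice of the family, 4 of 8 members were past the threshold as lower and 0 as higher, where 3.23% of all genes were lower and 4.36% higher. Of the 85 regions, 43 were past it as lower and 0 as higher (49 and 3 at an unadjusted p below 0.05; 40 and 0 by DESeq2), where 2.94% of all regions were lower and 3.28% higher, and they lay in Cyp3a16 (15), Cyp3a41a (11), Cyp3a41b (9), Cyp3a44 (7) and Cyp3a11 (1). Regions that entered through KO livers on chow alone had to be high on that side of this comparison too. With the mitochondrial share as a covariate the count of regions was 21 and the Cyp3a41a difference was -1.07. Within the higher-mitochondrial libraries, where KO on PTU/LID keeps 1 library (Ptulid_NCoRKO_27ac_211), the differences were -2.03 for Cyp3a16, -1.87 for Cyp3a41a, -1.58 for Cyp3a41b and -1.28 for Cyp3a44, of which 2, Cyp3a16 and Cyp3a41b, were past the threshold. The start region of Cyp3a16 had 5.63, 3.04 and 2.77 CPM in KO livers on PTU/LID, a difference from chow of -3.31 ± 0.29.

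**Figure D2:**
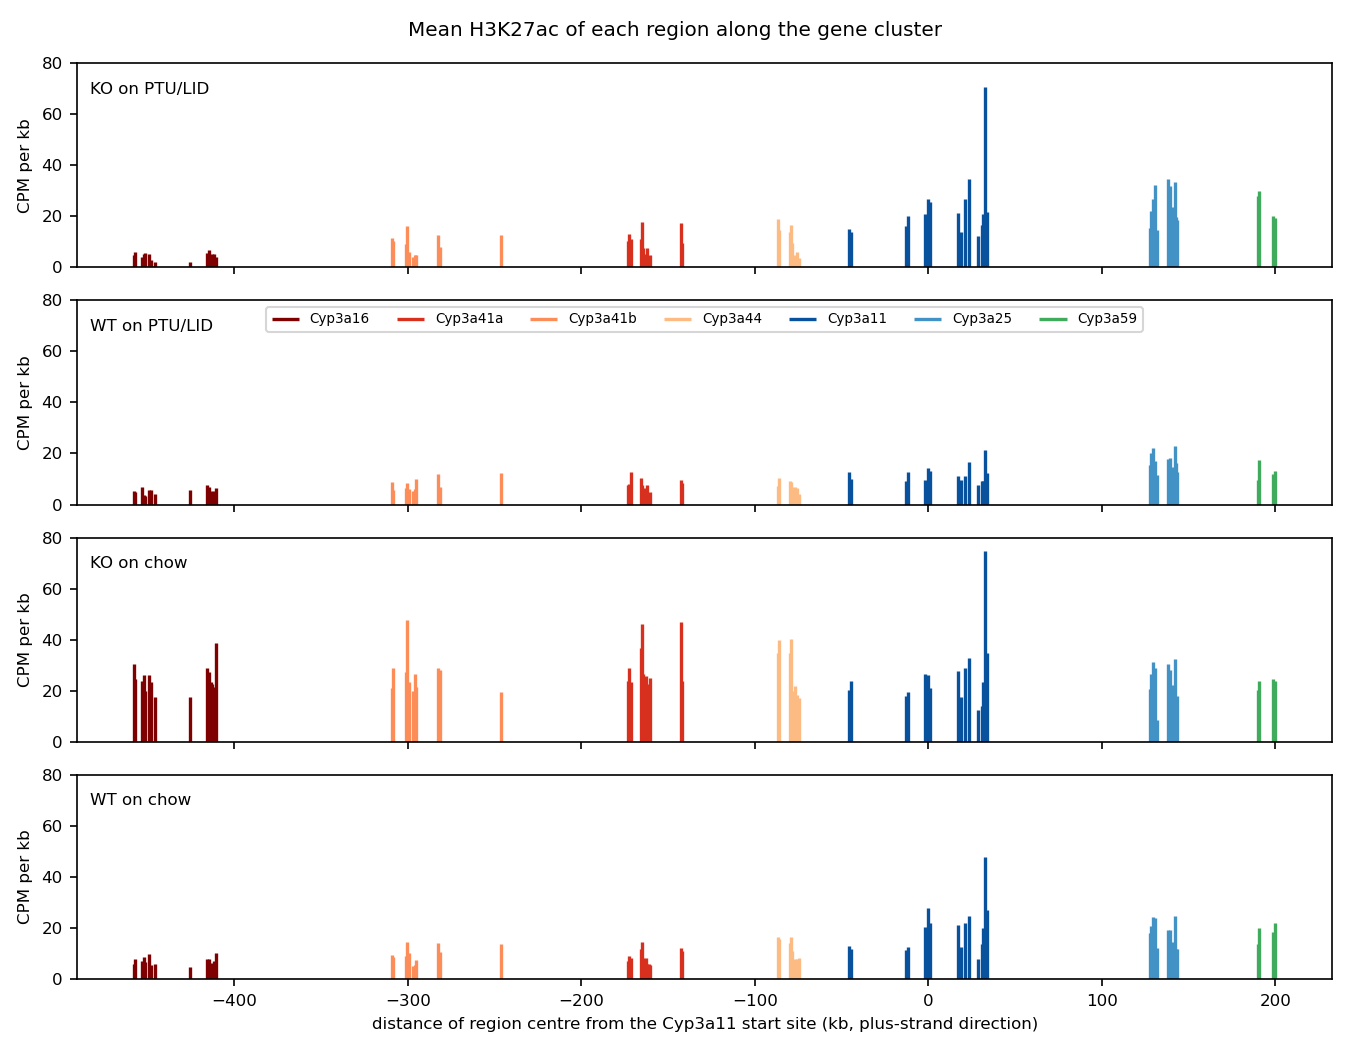
Mean H3K27ac of each region, in CPM per kb, against the distance of its centre from the Cyp3a11 start site in kb, with 1 panel per group and colours for the gene each region belongs to (Cyp3a13 lies outside the window). The regions of Cyp3a16, Cyp3a41b, Cyp3a41a and Cyp3a44 are taller in KO on chow than in the other panels, and the tallest Cyp3a11 region is lowest in WT on PTU/LID.

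Along Cyp3a41a, Cyp3a41b and Cyp3a44 the median difference by diet in KO livers was farther from 0 near the start site than further inside the gene. In the first 2000 bases downstream it was -2.39 in Cyp3a41a (2 regions), -2.28 in Cyp3a41b (3) and -2.03 in Cyp3a44 (2), and beyond 2000 bases inside the gene it was -1.63, -1.52 and -1.31 over 9, 5 and 6 regions. Cyp3a16 was not graded in this way. Its start region stood at -3.31 and the other region within 2000 bases at -2.06, against -3.10 to -2.06 over 5 regions further inside and -3.09 to -1.99 over 8 regions beyond the end of the gene. Upstream, Cyp3a41a had 2 regions with a median of -1.36 and Cyp3a41b 3 with -1.24, the nearest of them 16741 and 12125 bases from the start site, and none upstream was assigned to Cyp3a16 or Cyp3a44. Cyp3a11, Cyp3a25, Cyp3a59 and Cyp3a13, in contrast, had regions on both sides of their starts within 2 kb. These medians rest on few regions each and are a description.

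**Figure D3:**
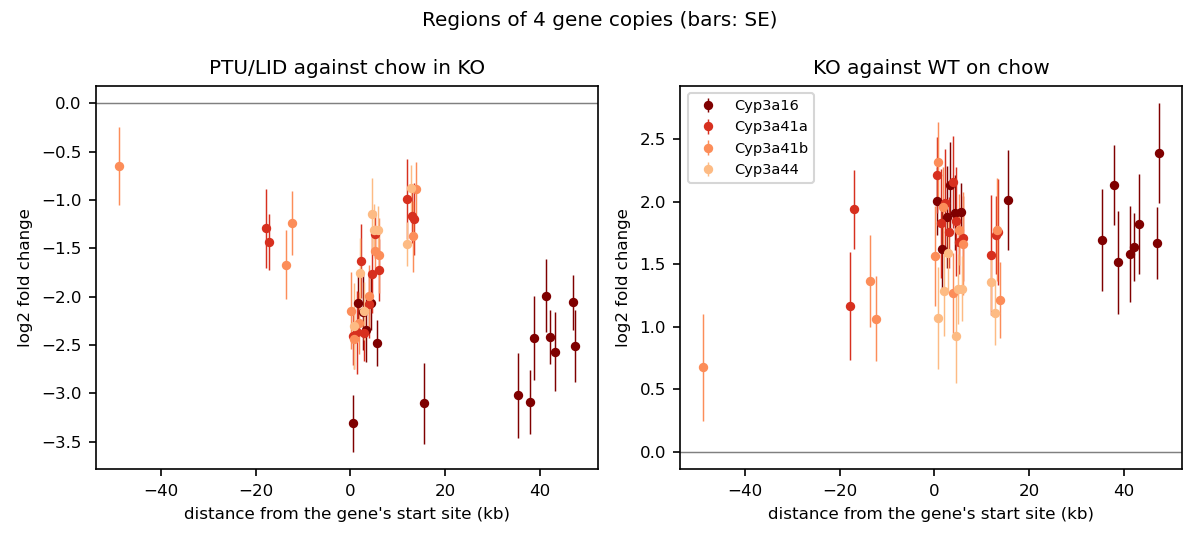
Log2 fold change with SE of each region of Cyp3a16, Cyp3a41a, Cyp3a41b and Cyp3a44 against the distance of its centre from that gene's start site in kb (negative is upstream), for PTU/LID against chow in KO (left) and KO against WT on chow (right). All left values are below 0 and all right values above it, and the region of Cyp3a16 nearest the start lies at -3.31 on the left.

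Cyp3a11, Cyp3a25 and Cyp3a59 followed another course. They were higher in KO than in WT livers on PTU/LID. The lower Cyp3a11 of WT livers on PTU/LID was known when the family was chosen, so the Cyp3a11 p-value here is not independent of that choice. Cyp3a11 had 29.5, 31.6 and 29.0 CPM per kb in KO livers on PTU/LID and 15.9, 14.8 and 10.8 in WT livers on PTU/LID (log2 fold change 1.12 ± 0.12, adjusted p = 8.17e-06). Cyp3a59 had 28.6, 27.7 and 26.4 in KO against 13.5, 14.3 and 11.3 in WT (1.08 ± 0.15, adjusted p = 0.000101). Cyp3a25, a member active in both liver and gut, had 28.1, 33.0 and 31.8 against 18.4, 20.2 and 19.5 (0.68 ± 0.10, adjusted p = 0.00016). For these 3 genes every KO library exceeded every WT library on PTU/LID, as for 11.6% of all genes, and the 3 calls held with any 1 library left out. They made 3 of 8 members higher and 0 lower, where 5.34% of all genes were higher and 1.33% lower. Within the higher-mitochondrial libraries, with 1 library on each side on PTU/LID, the Cyp3a11 value was 0.87 (adjusted p = 0.00121). In the other 5 libraries it was 1.24.

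Cyp3a44 had 14.0, 12.1 and 13.1 in KO livers on PTU/LID and 11.1, 8.38 and 6.41 in WT livers on PTU/LID, which did not overlap but did not pass (0.62 ± 0.23, adjusted p = 0.135). It passed with DESeq2 (adjusted p = 0.0447), without Ptulid_WT_27ac_135 (0.82, 0.0416) or without Chow_NCoRKO_27ac_146 (0.0361). With the mitochondrial share as a covariate in edgeR it also passed (0.74, adjusted p = 0.00147). Its value was 0.31 within the higher-mitochondrial libraries and 0.77 in the others. Cyp3a41a (0.44), Cyp3a41b (0.28) and Cyp3a16 (-0.25) had overlapping groups and did not pass. Nor did Cyp3a13 (0.12), which had 21.4, 23.7 and 23.3 in KO and 17.4, 20.6 and 24.6 in WT on PTU/LID.

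Of the 85 regions, 16 were higher and 0 lower in KO than in WT on PTU/LID (27 and 5 at an unadjusted p below 0.05; 16 and 0 by DESeq2), where 3.17% of all regions were higher and 0.698% lower. They comprised 8 of 16 at Cyp3a11, 4 of 11 at Cyp3a25, 2 of 4 at Cyp3a59, 1 at Cyp3a41a and 1 at Cyp3a44. Without Ptulid_WT_27ac_280 the count was 10, and within the higher-mitochondrial libraries it was 2. The strongest member region of all lay 32107 to 33249 bases upstream of the Cyp3a11 start, at chr5:145911961-145913103, outside any member gene. It had 81.3, 84.6 and 76.5 CPM in KO livers and 22.7, 27.1 and 23.2 in WT livers on PTU/LID (1.73 ± 0.17, adjusted p = 2.48e-08), with 82.4, 92.1 and 81.5 in KO against 54.8, 47.5 and 61.2 in WT on chow (0.64 ± 0.16, adjusted p = 0.0212). WT livers on PTU/LID thus stood apart below the 9 other libraries, and how many of all regions do so was not counted. The call on chow was lost without any 1 of 5 of the 6 chow libraries (adjusted p 0.057 to 0.134). As for Cyp3a11 summed above, the comparison on PTU/LID is not independent of the choice of the family. At Cyp3a59 the strongest region, 8952 to 10057 bases upstream of its start (chr5:146069201-146070306), had 37.1, 27.2 and 28.7 CPM in KO against 10.2, 13.3 and 8.62 in WT on PTU/LID (1.52 ± 0.24, adjusted p = 9.47e-05). At Cyp3a25 the strongest region, 221 to 1796 bases upstream (chr5:146009839-146011414), had 41.9, 56.9 and 53.1 in KO against 28.1, 31.7 and 20.5 in WT on PTU/LID (0.93 ± 0.18, adjusted p = 0.00114). Within the higher-mitochondrial libraries, with 1 library on each side, its value was 0.58. The strongest region of Cyp3a13, chr5:137921678-137923228, just upstream of its start, had 34.8, 40.4 and 38.3 in KO against 28.4, 28.6 and 37.0 in WT (0.27 ± 0.17, adjusted p = 0.464).

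**Figure D4:**
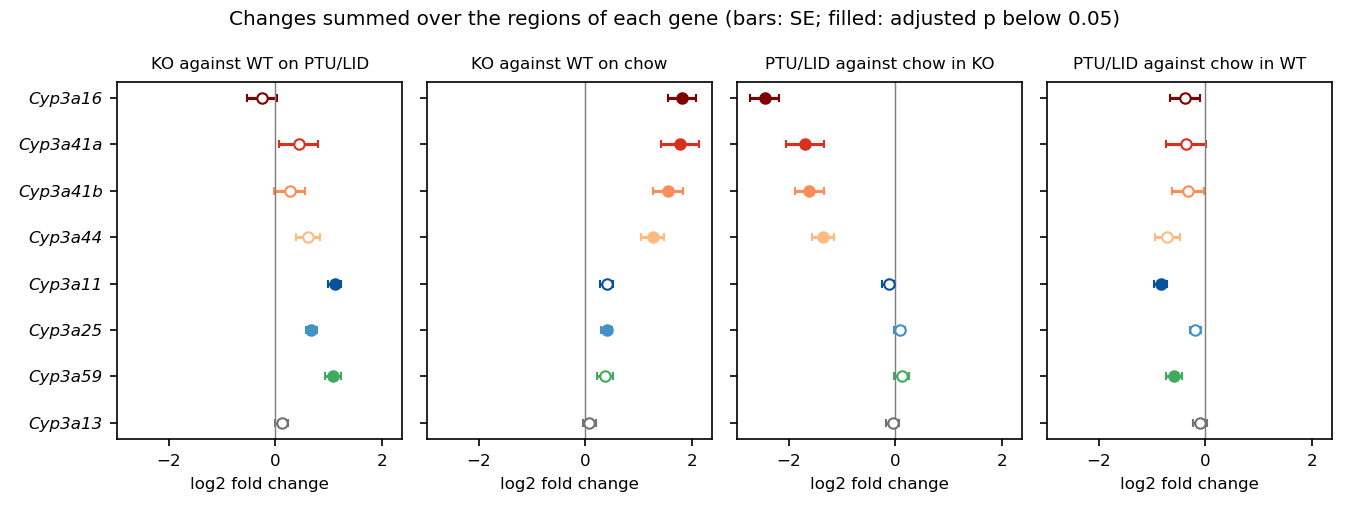
Log2 fold changes of the counts summed over each gene's regions, with SE, in 4 comparisons with 3 libraries a group, where filled points have an adjusted p below 0.05. Cyp3a16, Cyp3a41a, Cyp3a41b and Cyp3a44 are the members past the threshold by diet in KO, and Cyp3a11, Cyp3a25 and Cyp3a59 are those past it for KO against WT on PTU/LID.

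In WT livers the diet differences farthest from 0 were those of Cyp3a11, Cyp3a44 and Cyp3a59. Cyp3a11 had the 15.9, 14.8 and 10.8 CPM per kb given above on PTU/LID, against 27.6, 22.95 and 23.4 in WT livers on chow, a log2 difference of -0.83 ± 0.13. Cyp3a59 had 13.5, 14.3 and 11.3 on PTU/LID against 20.0, 17.4 and 21.0 on chow (-0.59 ± 0.16). The groups of these genes did not overlap, nor did those of Cyp3a44 and Cyp3a25, as for 14.3% of all genes in this direction. As a description, since Cyp3a11 here entered the choice of the family, Cyp3a11 and Cyp3a59 were past the threshold with edgeR. These were 2 of 8 members, both lower, where 3.99% of all genes were lower and 3.82% higher. Within the higher-mitochondrial libraries Cyp3a11 (-0.66) was still past it and Cyp3a59 (-0.46) was not. The Cyp3a44 difference was -0.71 ± 0.23, not past the threshold with edgeR. Cyp3a44 was past it with DESeq2 (-0.70) and with the mitochondrial share as a covariate (-0.53). It was also past it without Ptulid_WT_27ac_135 (-0.91), among other left-out libraries. Cyp3a16 had 6.85, 6.06 and 5.72 on PTU/LID, between the WT chow values (-0.38). Cyp3a41a, Cyp3a41b, Cyp3a25 and Cyp3a13 differed by -0.35, -0.32, -0.19 and -0.10. Of the 85 regions 9 were past the threshold as lower and 0 as higher in WT livers on PTU/LID, 8 of them at Cyp3a11 and 1 at Cyp3a44, where 1.9% of all regions were lower and 1.81% higher (20 and 0 at an unadjusted p below 0.05; 9 and 0 by DESeq2). Without Ptulid_WT_27ac_280 the count was 3, without Chow_WT_27ac_96 it was 4, and within the higher-mitochondrial libraries it was 1. At the distal Cyp3a11 region the WT difference by diet was -1.16 ± 0.17, against -0.08 ± 0.15 in KO livers. This comparison shares its WT libraries on PTU/LID with the one between genotypes on PTU/LID, so the low WT values enter both.

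The difference between the diet effects of both genotypes, KO minus WT, was -2.07 ± 0.38 for Cyp3a16 summed over its regions, and Cyp3a16 was the only 1 of 8 members past the threshold, where 0.105% of all genes passed below 0 and 0.314% above. It was not past the threshold in 8 of 12 settings that left out 1 library. Cyp3a11 had the opposite sign, 0.71 ± 0.19, and was not past the threshold in this fit. Cyp3a11 was past it with DESeq2 (0.71), with the mitochondrial share as a covariate (0.82) and without Ptulid_WT_27ac_135 (0.82). Cyp3a59 was past it without Chow_NCoRKO_27ac_146 (0.89). Of the regions, 10 passed below 0 (6 at Cyp3a16, 2 at Cyp3a41b, 1 at Cyp3a41a and 1 at Cyp3a44) and 1 above 0, the distal Cyp3a11 region, where 0.0722% of all regions passed below 0 and 0.158% above. Left-out libraries brought the 11 down to 4 at the least, without Chow_WT_27ac_106, and within the higher-mitochondrial libraries 2 passed. Since the diet effects of Cyp3a11 in WT and Cyp3a16 in KO were known when the family was chosen, these differences are not independent of that choice and support nothing by themselves.

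Ratios of each member to Cyp3a11 within a library need no scaling. Of the 7 ratios compared between genotypes (exact permutation test of libraries within each diet, 400 arrangements, 2-sided, Benjamini-Hochberg over 14 tests with those by diet), 1 passed, at 0.005, the smallest p these arrangements can give (adjusted p = 0.035). That adjusted p is below 0.05 only because the diet ratio of Cyp3a25, given below as a description, has the same p of 0.005 in the same adjustment. The log2 ratio of Cyp3a13 to Cyp3a11 was lower in KO than in WT livers, by -0.99 on PTU/LID and -0.34 on chow. This ratio holds the lower Cyp3a11 of WT livers on PTU/LID, known when the family was chosen, so it is not independent of that choice. It did not pass in 7 of 12 settings that left out 1 library (adjusted p over the 12 settings 0.035 to 0.105), nor with regions within 10 kb. In those 7 settings no ratio passed at all. Without Ptulid_NCoRKO_27ac_211, for example, the smallest p of any ratio was 0.005 and the smallest adjusted p 0.07. A loss there need not mean a smaller difference. By diet, given as a description because it holds the lower Cyp3a11 of WT livers on PTU/LID, the ratio of Cyp3a25 to Cyp3a11 was higher on PTU/LID than on chow, by 0.20 in KO and 0.66 in WT livers. For Cyp3a16 the ratio moved in opposite directions, by -2.35 in KO and 0.50 in WT livers for PTU/LID against chow, with a mean over genotypes of -0.92.

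As a share of all counts in the 85 regions, Cyp3a16, Cyp3a41a, Cyp3a41b and Cyp3a44 together held 22.9%, 16.8% and 23.6% in KO livers on PTU/LID, 32.3%, 26.7% and 25.4% in WT livers on PTU/LID, 43.1%, 51.4% and 47.2% in KO livers on chow and 30.6%, 30.7% and 20.8% in WT livers on chow. KO livers on chow thus stood above all other libraries. Cyp3a11 alone held 35.8% to 40.0% in KO on PTU/LID, 24.3% to 30.1% in WT livers on PTU/LID, 25.3% to 29.2% in KO livers on chow and 33.9% to 38.3% in WT on chow.

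**Figure D5:**
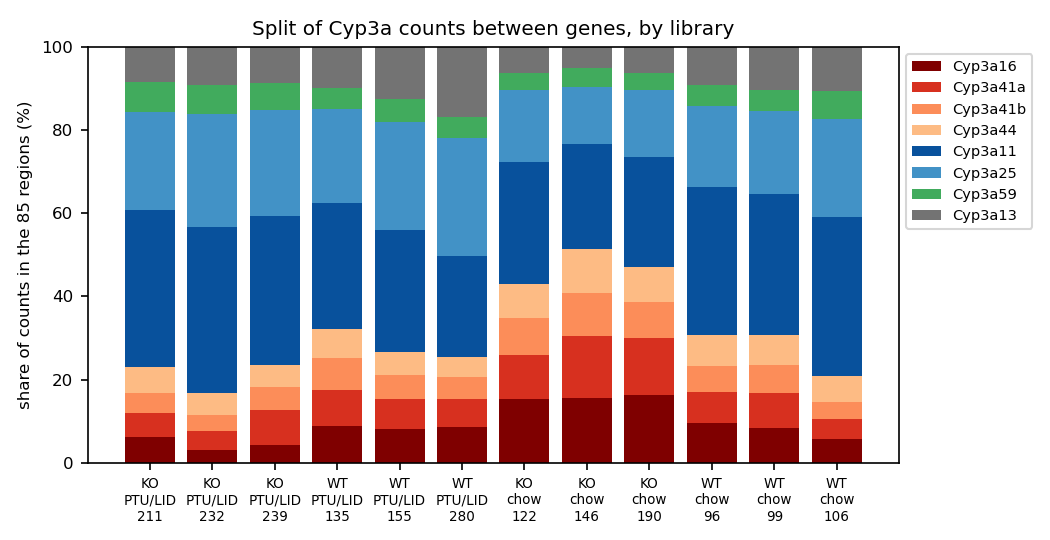
Share of the counts in the 85 regions held by each Cyp3a gene, in percent, with 1 stacked bar per library and the groups in the order KO and WT on PTU/LID, KO and WT on chow. The 4 lowest colours (Cyp3a16, Cyp3a41a, Cyp3a41b, Cyp3a44) reach 43.1% to 51.4% in KO on chow and 16.8% to 32.3% in the other 9 libraries.

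Across the 12 libraries, log2 CPM of Cyp3a11 was most like that of Cyp3a59 (Pearson r 0.94) and Cyp3a25 (0.85) among members and least like that of Cyp3a13 (0.34). Outside the family the closest were Dot1l, an H3K79 methyltransferase (0.96), Fut8, a fucosyltransferase (0.96), Elovl5, a fatty acid elongase (0.96), Prtg (0.96) and B4galt1, a galactosyltransferase (0.96). Cyp3a16 was most like Cyp3a41b (0.94), Cyp3a41a (0.92) and Cyp3a44 (0.89), and outside the family like Ginm1 (0.94), Chic1 (0.94), Mup19, a major urinary protein gene (0.92), Olfr1346 (0.91) and Cyp7a1 (0.90), which catalyses the rate-limiting step from cholesterol to bile acids. Libraries of a group and their depth are shared by all these values, so they describe likeness of pattern and carry no test.

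Counts over the lists that follow stand against 5.34% of all genes higher and 1.33% lower in KO on PTU/LID, 2.54% and 1.56% in KO on chow, 4.36% and 3.23% by diet in KO and 3.82% and 3.99% by diet in WT livers. Among 20 listed regulators of Cyp3a genes, Nr1i2, which encodes PXR, rose by 0.79 ± 0.17 in KO against WT on PTU/LID (adjusted p = 0.0072) and had 0.24 ± 0.16 on chow, which did not pass. In all 2 regulators were higher and 0 lower in KO on PTU/LID, and 2 higher and 0 lower in KO on chow, Foxa2 (0.43 ± 0.09, adjusted p = 0.0105) and Onecut1 (0.51 ± 0.11, adjusted p = 0.0124), 2 liver transcription factors. By diet, 1 was higher and 1 lower on PTU/LID in KO livers, and 3 were higher in WT livers. Of 6 electron donors to P450s only Cyb5r3, cytochrome b5 reductase, passed in any comparison (0.34 ± 0.10 by diet in WT livers, adjusted p = 0.0314).

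Of 27 listed PXR and CAR targets outside the cluster, 8 were higher and 0 lower in KO than in WT on PTU/LID. Cyp2c55, another drug-metabolising P450, rose by 0.82 ± 0.15 (adjusted p = 0.00132), the carboxylesterase Ces2a by 0.67 ± 0.13 (0.00203), Papss2, which makes the sulfate donor PAPS, by 0.65 ± 0.11 (0.000465) and the glucuronosyltransferase Ugt1a9 by 0.58 ± 0.14 (0.0137). On chow 1 of the 27 was higher in KO, Papss2 (0.43 ± 0.11, adjusted p = 0.0255), and by diet 4 were higher in KO and 1 lower in WT livers on PTU/LID.

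Predominantly female liver genes outside the cluster were higher in KO than in WT livers on both diets where they passed, 7 of 18 on PTU/LID and 3 of 18 on chow, with 0 lower. Sult2a1, a hydroxysteroid sulfotransferase, rose by 1.92 ± 0.25 in KO on PTU/LID (adjusted p = 0.000285) and 2.262 ± 0.25 on chow (9.63e-05), Cyp17a1, a steroid hydroxylase, by 0.97 ± 0.15 and 0.89 ± 0.15 (0.000285 and 0.00162) and Ntrk2 by 0.66 ± 0.11 and 0.78 ± 0.11 (0.000393 and 0.000116). These 3 did not pass by diet in KO livers (-0.61, -0.15 and -0.22), and 1 of the 18 was lower on PTU/LID in KO and 2 in WT livers. Of 16 measured predominantly male genes, 3 were higher and 0 lower in KO on PTU/LID, and 3 higher and 2 lower in KO on chow. Mup1 and Mup7, urinary pheromone carriers, were higher in KO on chow (1.001 ± 0.13 and 0.93 ± 0.15, adjusted p = 8.04e-05 and 0.00162), whereas Slco1a1, an organic anion transporter, was lower (-1.05 ± 0.28, adjusted p = 0.0317). By diet, 1 of the 16 was higher and 4 lower on PTU/LID in KO livers, and 2 higher and 5 lower in WT livers. Mup1 fell by 2.12 ± 0.14 in KO and 1.77 ± 0.14 in WT livers (adjusted p = 3.46e-10 and 1.69e-08), and Mup7 by 2.15 ± 0.15 and 1.76 ± 0.16 (1.8e-08 and 8.16e-07). Of 10 growth hormone signalling genes, 4 were higher in KO on PTU/LID, the transducers Stat5b (0.61 ± 0.10, adjusted p = 0.000349) and Stat5a (0.90 ± 0.17, 0.00115), the repressor Bcl6 (0.46 ± 0.10, 0.00394) and the feedback inhibitor Socs2 (0.94 ± 0.21, 0.0131), and 1 was higher on chow, Bcl6 (0.45 ± 0.10, adjusted p = 0.0103). By diet, 1 of the 10 was lower on PTU/LID in KO livers and 3 in WT livers, with 0 higher. Bcl6 had -0.33 ± 0.10 in KO (adjusted p = 0.037) and -0.34 ± 0.10 in WT livers (0.034), and Stat5a had -0.70 ± 0.17 in WT livers (0.0139). For the difference between diet effects 0 genes of these lists passed with edgeR, and 0 with DESeq2, though 2 regulators, 2 PXR and CAR targets, 3 female, 1 male and 2 growth hormone genes had an unadjusted p below 0.05, each above 0. Cyp2b9, Cyp2b13 and Cyp2a4 stand in both the PXR and CAR list and the female list.

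The neighbours of all members were looked at for comparison. Members include Cyp3a13, which sits apart from the others, and genes near it were not counted separately. The counts below therefore do not describe the flanks of the predominantly female copies alone. Of 73 protein-coding genes within 500 kb of a member, 41 had a region, and with edgeR 0 passed between genotypes on either diet. At an unadjusted p below 0.05, 2 were higher and 1 lower in KO on PTU/LID and 3 higher and 3 lower in KO on chow, and DESeq2 called 0 on PTU/LID and 1, higher in KO, on chow. Smurf1, a ubiquitin ligase, passed by diet in both genotypes (0.65 ± 0.14 in KO, adjusted p = 0.0031, and 0.47 ± 0.14 in WT, adjusted p = 0.0401), and was higher on PTU/LID.

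Markers of other liver cells were set beside these results. Kupffer cell and macrophage markers had regions for 4 of 8 genes, with Adgre1, Clec4f, Vsig4 and Marco absent, and summed to 35.3 to 49.5 CPM in KO on PTU/LID, 36.4 to 37.3 in WT livers on PTU/LID, 35.4 to 40.5 in KO livers on chow and 51.2 to 70.8 in WT on chow. Sinusoidal endothelial markers had regions for 7 of 8 genes and summed to 792 to 855, 849 to 974, 825 to 840 and 1016 to 1056 CPM in the same order of groups. In KO against WT on chow the macrophage factor Spi1 fell by 0.71 ± 0.18 (adjusted p = 0.0255), and endothelial Ehd3 and Pecam1 fell by 0.68 ± 0.13 (0.00339) and 0.57 ± 0.12 (0.0104). The same 3 genes fell by diet in WT livers, where Cyp3a11 was lower, Spi1 by 0.93 ± 0.19 (adjusted p = 0.00336), Ehd3 by 0.43 ± 0.13 (0.037) and Pecam1 by 0.52 ± 0.12 (0.0117). Lymphocyte markers (2 of 6 with regions, with Cd3e, Cd8a and Cd79a among those absent) summed to 74.2 to 75.7, 50.2 to 67.9, 105.9 to 142.9 and 99.1 to 103 CPM. Both lymphocyte genes with a region went opposite ways in KO against WT on chow, Cd4 by 0.56 ± 0.16 (adjusted p = 0.0479) and Ptprc by -0.69 ± 0.19 (0.0415), and Cd4 fell by diet by 1.03 ± 0.16 in KO (0.000151) and 1.03 ± 0.17 in WT livers (0.000703). Stellate cell markers (2 of 6) summed to 8.89 to 22.8 and cholangiocyte markers (2 of 5) to 36.4 to 70.6 over all libraries. Their part in the Cyp3a differences was not tested.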

How the data were processed

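H3K27ac ChIP-seq libraries of mouse liver were used as whole-number read counts per region, deposited by the authors in 1 table of 52645 regions with start, end and length. The submitters' processing notes name mm10 as the build, and MACS2 2.1.1, bedtools 2.26.0, Bowtie2 2.2.1, bcl2fastq 2.17.1.14 and Picard 2.8.1 as tools. Their roles, how the shared regions were made, the removal of duplicates and the handling of reads that match several copies were not given in the sources used here. Inputs (4 libraries) were not analysed here. 

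Starts, which the table counts from 0, were printed from 1. Gene positions came from a RefSeq table of GRCm38.p6, and start sites and strands of members from RefSeq promoters of that build. Counts were tested per region and summed per gene with edgeR 4.0.16 in R 4.3.3 (quasi-likelihood test, robust, TMM, filterByExpr with a minimum count of 10, 1 mean per group over 12 libraries), with Benjamini-Hochberg adjustment over 52606 regions or 11459 genes and a threshold of 0.05. Standard errors are the size of the log2 fold change divided by the root of F. CPM use TMM factors, so a shift of H3K27ac everywhere would be lost. Ratios used gene sums plus 0.5. The fit was tested on simulated data. DESeq2 1.42.0 and other alternatives are in the closing section. Intervals of counting error are not given because libraries are replicated.

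Members and lists were chosen with earlier results of these data known. Named regions are the strongest of each member and some of the 12 with the smallest adjusted p in any comparison. Named list genes are the 4 per list with the smallest p among those past the threshold. Likeness names the 5 genes outside the family with the highest Pearson r. The start-proximal region of Cyp3a44 and the regions beyond the distance limit were named after their values were seen. So were the diet values of Mup1, Mup7, Bcl6, Stat5a and cell markers. Some listed genes are not reported here.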

Additional observations from a re-analysis of the deposited data

Results flagged for a closer look

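For 12 results the effect of diet (PTU/LID against chow) differed between KO and WT livers by the test of that difference (edgeR, adjusted p below 0.05), which is not independent of how the family was chosen. Summed over its regions, Cyp3a16 had a difference of -2.07 (log2, KO minus WT). Its regions on chromosome 5 starting at 145431204 (-3.08), 145453960 (-3.57), 145463539 (-2.44), 145464986 (-1.97), 145466269 (-2.37) and 145468718 (-2.76) had the same sign. Cyp3a41b followed with the regions at 145582409 (-2.35) and 145583767 (-2.64), Cyp3a41a with 145719090 (-2.24) and Cyp3a44 with 145802525 (-2.02). The distal Cyp3a11 region at 145911961 went the other way (1.09). At 145453960, the farthest from 0, the libraries had 2.05, 0.552 and 1.17 CPM in KO on PTU/LID, 2.69, 1.72 and 5.54 in WT on PTU/LID, 9.07, 10.2 and 10.5 in KO on chow and 2.85, 4.14 and 0.992 in WT on chow, so it rests on low counts. Without Ptulid_WT_27ac_280 its difference was -2.92, no longer past the threshold.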

How the results depend on the processing

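No paired analysis was possible because the H3K27ac groups share no replicate numbers. Across all alternatives no called direction reversed. With 1 library left out, the count of regions ranged from 10 to 20 (16 with all) for KO against WT on PTU/LID, 21 to 45 (43) for KO against WT on chow, 34 to 46 (43) for PTU/LID against chow in KO, 3 to 11 (9) for PTU/LID against chow in WT and 4 to 12 (11) for the difference between diet effects. The count of genes ranged from 3 to 4 (3), 3 to 6 (5), 3 to 4 (4), 1 to 3 (2) and 0 to 1 (1). Genes for KO against WT on chow were 3 without Chow_NCoRKO_27ac_146, Chow_NCoRKO_27ac_190 or any 1 WT library on chow, and genes by diet in WT were 1 without Ptulid_WT_27ac_280 or Chow_WT_27ac_96 (without Ptulid_WT_27ac_280, Chow_WT_27ac_106 or Chow_WT_27ac_96 the lost gene was Cyp3a59). Cyp3a41a by diet in KO was lost without Ptulid_NCoRKO_27ac_211 (-1.63) or Ptulid_NCoRKO_27ac_232 (-1.49). The ratio to Cyp3a11 ranged from -0.78 to -0.52 for Cyp3a13 (KO minus WT), and by diet from 0.25 to 0.52 for Cyp3a13, 0.34 to 0.50 for Cyp3a25 and 0.22 to 0.31 for Cyp3a59. The count of genes for the difference between diet effects was 2 with DESeq2, 0 with upper quartile factors, 2 with the mitochondrial share as a covariate and 0 with regions within 10 kb. With that covariate the regions by diet in KO were 21 and those for the difference between diet effects 7. Within the 7 higher-mitochondrial libraries, an alternative chosen after seeing the data, the regions were 2 for KO against WT on PTU/LID, 1 by diet in WT and 2 for the difference between diet effects, and the genes 2 by diet in KO and 1 by diet in WT; fewer libraries enter these fits. With regions within 10 kb the ratio of Cyp3a13 was -0.48 (KO minus WT, adjusted p = 0.07) and that of Cyp3a25 by diet 0.28. The cause of these shifts was not tested. Depth limits the low regions of Cyp3a16 and its copies, where the smallest count was 2 reads.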
